A study of Mus musculus with 2 samples.

Results

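The genes described here make, crosslink and bind the hyaluronan-rich matrix of the embryonic heart, together with the small proteoglycans that join its collagen. They are the 10 genes Vcan, Hapln1, Has2, Cd44, Bgn, Dcn, Lum, Ogn, Fmod and Acan, found by symbol among 23276 genes of the deposited table. All 10 had a row, and 9 averaged 1 FPKM or more over the 2 libraries, the level from which genes were tested for a fold difference. FPKM are fragments scaled to transcript length and to the size of the library. Acan lay under that level.

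The Fendrr KO group was mouse heart ventricle of stage E12.5 (days of embryonic development) in which homologous recombination had removed Fendrr, a long non-coding RNA gene, from both alleles, and the WT group was the same tissue of wild type embryos. Both groups were on a C57BL/6 x 129SV background, and both sets of embryos came from embryonic stem cells by tetraploid complementation. Each group was 1 library of strand-specific, ribosomal RNA-depleted total RNA from 4 pooled ventricles, so no value has a replicate error or a test. Each library had its own sequencing run, and the base calling of the WT run was done by hand, per the labels, so genotype and run cannot be told apart. The order of genes by level, and every difference below, describes these libraries only.

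In the developing heart, the endocardial cushions begin as a swollen layer of extracellular matrix between endocardium and myocardium. Hyaluronan, a long unsulfated sugar chain extruded by a synthase in the cell membrane, fills this layer, and the chondroitin sulfate proteoglycan versican binds along it and is held there by a link protein. Endocardial cells then turn into mesenchyme, invade the matrix and go on to build the valves, in which small leucine-rich proteoglycans sit on collagen fibrils.

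Levels of these transcripts in the ventricle ran from very low (Acan) to high (Vcan). Vcan was the highest of the 10 genes in both libraries, at 65.2 FPKM in KO and 52.8 FPKM in WT, above 93.08% of the genes tested in KO and 90.55% in WT. Dcn and Lum came next in both, and Acan was last. In KO the order after these was Bgn, Hapln1, Ogn, Cd44, Has2 and Fmod, whereas in WT it was Bgn, Cd44, Hapln1, Has2, Ogn and Fmod. Summed over the 10 genes the level was 213.8 FPKM in KO and 184.8 FPKM in WT.

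**Figure D1:**
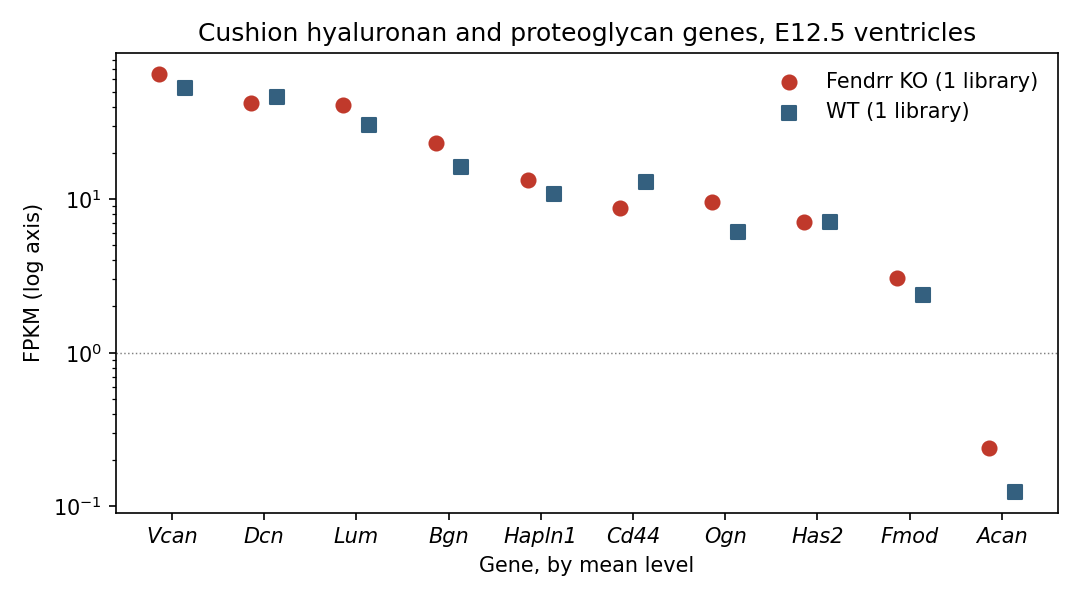
FPKM of the 10 cushion genes on a log axis, ordered by mean level, with 1 point for the Fendrr KO library (circles) and 1 for the WT library (squares); the dotted line marks 1 FPKM. Vcan, Lum, Bgn, Hapln1, Ogn, Fmod and Acan lie higher in KO and Cd44 and Dcn lower, while Has2 (7.08 FPKM in KO and 7.13 FPKM in WT) nearly coincides.

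As deposited, 6 of the 9 genes tested had a higher FPKM in KO and 3 a lower one, where 33.0% of all 11349 genes tested were higher and 67.0% lower. Their median log2((KO + 1)/(WT + 1)) was 0.28, against -0.11 for all genes tested. Relative to the all-gene median, 7 of the 9 lay above it, where 50.0% of genes do by construction. Cd44 and Dcn lay below it, Dcn at -0.0125. None of the 9 was 2-fold apart: over all genes tested, 0.467% reached that limit on the higher side in KO and 0.388% on the lower side. At a limit of 1.5-fold the count of the 9 was also 0 in both directions, where 1.54% of all genes were higher and 3.6% lower. That count depends on the setting: Ogn and Bgn were at least 1.5-fold higher under each of 5 other scalings, Lum as well with the upper quartile, and Ogn alone with 0.1 FPKM added, a check chosen after the values were seen. Over all genes tested, 2.34% to 3.7% were that much higher under those scalings and 2.88% with 0.1 FPKM added. The scale adds 1 FPKM to each value, so it understates differences of low genes.

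**Figure D2:**
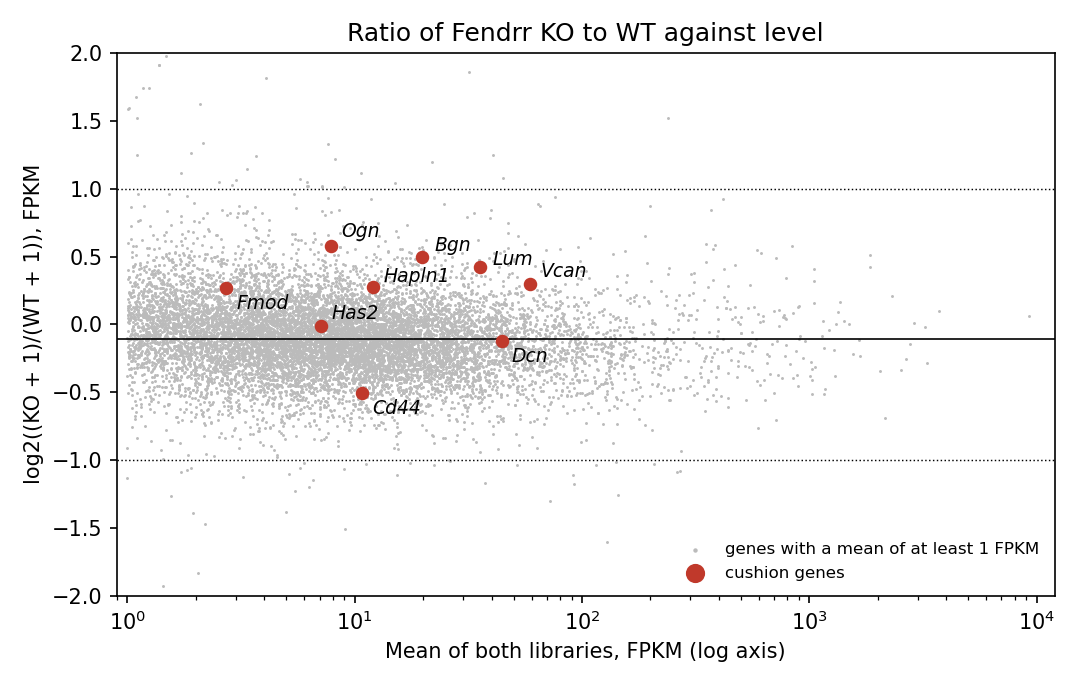
Log2 ratio of KO to WT (1 FPKM added) against the mean of both libraries on a log axis, for all genes averaging 1 FPKM or more (grey) and the 9 cushion genes among them (red); the solid line is the median of all genes, -0.11, and the dotted lines mark 2-fold. Ogn, Bgn and, only just, Lum lie above the central 95% of log2 ratios of genes at their level, while Cd44 lies inside it. The 24 genes beyond a log2 ratio of 2 in size are off the plot.

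Promoters are shown for 3 genes: that of Vcan, the most abundant of the genes, and those of Ogn and Cd44, the genes with the highest and the lowest log2 ratio. Each runs from 250 bases before to 50 bases after the RefSeq start on GRCm38.p6, 5′ to 3′ on the strand of the gene. They lie at chr13:89742463-89742762 on the minus strand (Vcan), chr13:49607765-49608064 on the plus strand (Ogn) and chr2:102901616-102901915 on the minus strand (Cd44). Capitals mark matches on either strand to TATAAA, the letters of the TATA box, to CCAAT, the letters of the box so named, to GGGCGG, the GC box, or to CAGGTG, an E-box of the kind that Snail factors bind.
Vcan: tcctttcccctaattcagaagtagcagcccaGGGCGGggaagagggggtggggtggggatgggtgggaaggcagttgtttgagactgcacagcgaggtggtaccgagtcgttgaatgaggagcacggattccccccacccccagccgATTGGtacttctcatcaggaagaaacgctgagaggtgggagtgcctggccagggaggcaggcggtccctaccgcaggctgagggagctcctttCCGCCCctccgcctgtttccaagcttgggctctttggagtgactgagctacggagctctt
Ogn: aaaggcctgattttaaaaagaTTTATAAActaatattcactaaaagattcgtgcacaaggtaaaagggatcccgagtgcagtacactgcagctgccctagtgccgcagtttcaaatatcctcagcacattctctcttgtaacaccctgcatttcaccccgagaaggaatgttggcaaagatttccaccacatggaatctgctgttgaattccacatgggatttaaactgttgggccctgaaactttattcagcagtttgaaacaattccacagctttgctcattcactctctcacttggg
Cd44: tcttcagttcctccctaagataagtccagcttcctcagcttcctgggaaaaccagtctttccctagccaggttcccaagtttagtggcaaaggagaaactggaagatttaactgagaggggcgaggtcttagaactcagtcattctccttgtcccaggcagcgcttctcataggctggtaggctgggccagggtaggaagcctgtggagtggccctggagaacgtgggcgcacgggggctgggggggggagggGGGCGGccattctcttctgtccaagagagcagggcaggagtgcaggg
The window of Vcan held 2 GC boxes and 1 CCAAT box, that of Cd44 held 1 GC box just after the start, and that of Ogn held TATAAA on both strands, as 2 overlapping matches, with the first base 229 bases before the start. Among 27025 promoter windows of the same length, 35.9% held a GC box, 37.9% a CCAAT box, 14.2% a TATA box and 20.0% the E-box. The E-box was in none of the 7 windows found for the 10 genes (Vcan, Hapln1, Cd44, Bgn, Ogn, Fmod and Acan). The Acan window was the richest in CpG, with 31 of these dinucleotides, against 12 for Vcan, 6 for Cd44, 4 for Ogn and a median of 7 over all windows. Matches of this kind describe the letters of a window and are no evidence of binding, and the annotation behind the deposited values may use other starts.

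Has2, the main hyaluronan synthase of the embryonic heart, had 7.08 FPKM in KO and 7.13 FPKM in WT. Its FPKM ratio of KO to WT was 0.993, the closest to 1 among the 10 genes, and its log2 ratio of -0.0094 turned positive under each of 5 other scalings. Has2 lay 0.10 above the all-gene median. The other synthases were scarce, with Has1 at 0.116 FPKM in KO and 0.183 FPKM in WT and Has3 at 0.494 and 0.401 FPKM in the same order, both under the level tested.

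Genes that supply the sugar nucleotides for hyaluronan did not lie above the other genes. Of 10 genes of synthesis, Has2 included, 8 were tested, 4 of them above and 4 below the all-gene median, with a median log2 ratio of -0.16 and none 2-fold apart. Ugp2, which makes UDP-glucose, had 63.3 FPKM in KO and 83.2 FPKM in WT. Uap1, which makes UDP-N-acetylglucosamine, had 14.4 FPKM in KO and 20.6 FPKM in WT, a log2 ratio of -0.49. Gfpt2, an isoform of the entry enzyme of the hexosamine pathway, had 4.07 FPKM in KO and 3.15 FPKM in WT.

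Vcan encodes versican, the large chondroitin sulfate proteoglycan of the cushion matrix, without which mouse embryos form no cushions. With 65.2 FPKM in KO and 52.8 FPKM in WT, its FPKM ratio was 1.23 and its log2 ratio 0.30, and 6.899% of the genes tested had a log2 ratio as high. Splice forms of versican differ in the sugar-bearing stretches they hold, and the table gives 1 value per symbol, so the forms were not told apart.

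Hapln1, which encodes the link protein that clamps versican to hyaluronan, lies next to Vcan on chromosome 13, on the other strand. It had 13.3 FPKM in KO and 10.8 FPKM in WT. Its FPKM ratio of 1.23 was nearly that of Vcan, so that the level of Vcan over that of Hapln1 was 4.92 in KO and 4.91 in WT. The genes on either side of the pair did not share that ratio, with Edil3 at 3.49 FPKM in KO and 3.86 FPKM in WT and Xrcc4 at 17.6 FPKM in both libraries. Against Has2, Vcan was at 9.22 times its level in KO and 7.41 times in WT, a comparison inside each library.

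Acan encodes aggrecan, the lectican of cartilage, which is also made in developing valves. It had 0.240 FPKM in KO and 0.125 FPKM in WT. The FPKM ratio of 1.92 was the highest of the 10 genes, but it rests on levels under the limit of 1 FPKM, and on the scale with 1 FPKM added the log2 ratio was 0.14. Before scaling for depth it equals 2.42 KO reads for each WT read, if the authors scaled to all mapped reads. Hapln3, the link protein gene next to Acan on chromosome 7, was also low, at 0.764 FPKM in KO and 0.480 FPKM in WT. Among the remaining lecticans and links, Bcan, Hapln2 and Hapln4 were listed at 0 in both libraries and Ncan had 0.110 FPKM in KO and 0.0427 FPKM in WT, so that Vcan and Hapln1 made up nearly all of the summed level of this family.

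Cd44, the cell-surface receptor for hyaluronan, was the gene of the 10 furthest below its WT level. It had 8.73 FPKM in KO and 12.8 FPKM in WT, an FPKM ratio of 0.680 and a log2 ratio of -0.51, and 5.833% of all genes tested had a log2 ratio as low. Among the 4514 genes with a mean from 5 to under 20 FPKM, the central 95% of log2 ratios ran from -0.63 to 0.44, so Cd44 lay inside that range. Vcan was at 7.47 times the level of Cd44 in KO and 4.11 times in WT, and Has2 at 0.811 times in KO and 0.555 times in WT. Cd44 is also spliced into many forms, which the table does not separate. Pdhx, its neighbour on chromosome 2 and a gene of the pyruvate dehydrogenase complex, had 21.9 FPKM in KO and 30.3 FPKM in WT.

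Other receptors and enzymes that bind or cut hyaluronan stood on both sides. Of 20 such genes, Cd44 included, 11 were tested, with 7 above and 4 below the all-gene median, a median log2 ratio of -0.023 and none 2-fold apart. Lyve1, the hyaluronan receptor of lymphatic endothelium and some macrophages, was the furthest above, at 4.71 FPKM in KO and 2.49 FPKM in WT. Tmem2, a cell-surface protein linked to the breakdown of hyaluronan, was the most abundant and had 75.1 FPKM in KO and 75.2 FPKM in WT. Hmmr, a hyaluronan-binding protein that also acts on the mitotic spindle, had 34.0 FPKM in KO and 43.5 FPKM in WT. Of the hyaluronidases, Hyal1 had 1.37 FPKM in KO and 0.843 FPKM in WT, and Hyal2 had 8.52 FPKM in KO and 13.1 FPKM in WT. Hyal2 was named after its value was seen.

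Bgn encodes biglycan, an X-linked small leucine-rich proteoglycan with chondroitin or dermatan sulfate chains that binds collagen and TGF-beta. It had 23.3 FPKM in KO and 16.2 FPKM in WT, an FPKM ratio of 1.44. Its log2 ratio of 0.50 was reached by 2.317% of the genes tested. For genes of its level, 5 to under 20 FPKM, the upper end of the central 95% was 0.44, so Bgn lay beyond it. Its neighbours on the X chromosome had lower values in KO, as did 67.0% of all genes tested. Haus7 had 21.7 FPKM in KO and 27.1 FPKM in WT, and Atp2b3, under the level tested, had 0.244 and 0.341 FPKM in the same order.

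Decorin, the closest relative of biglycan and a regulator of fibril width, did not share this difference. Its gene Dcn had 42.3 FPKM in KO and 46.2 FPKM in WT, and its log2 ratio of -0.12, which turned positive with upper-quartile scaling and with equal totals, was almost that of the median gene. Dcn was thus at 1.82 times the level of Bgn in KO and 2.85 times in WT.

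Lum, which encodes lumican, lies next to Dcn on chromosome 10 and had 40.9 FPKM in KO and 30.2 FPKM in WT. Its log2 ratio of 0.43 was reached by 3.542% of genes, and it lay just beyond the upper end, 0.42, of the central 95% of the 2229 genes with a mean from 20 to under 100 FPKM. Over all 11349 genes tested that upper end was 0.49, and Lum lay inside it. Dcn and Lum were thus nearly level in KO, where Dcn was at 1.03 times Lum, and apart in WT, where it was at 1.53 times Lum. Further along the same run of genes, Kera, which encodes the corneal proteoglycan keratocan, was listed at 0 in both libraries, and Epyc, a gene of cartilage, had 0.106 FPKM in KO and 0.0444 FPKM in WT.

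Ogn, which encodes osteoglycin (mimecan), had the highest log2 ratio of the 10 genes. It had 9.62 FPKM in KO and 6.11 FPKM in WT, an FPKM ratio of 1.58 and a log2 ratio of 0.58, which 1.595% of the genes tested reached and which exceeded the central 95% at its level. It ends a run of 4 proteoglycan relatives on chromosome 13. Its neighbour Omd, which encodes osteomodulin, differed more, with 8.71 FPKM in KO and 3.80 FPKM in WT, a log2 ratio of 1.02. Aspn (asporin) had 4.08 FPKM in KO and 3.13 FPKM in WT, while Ecm2 at the other end of the run had 2.11 FPKM in KO and 2.13 FPKM in WT. Nol8, the gene on the other side of Ogn, had 10.1 FPKM in KO and 11.5 FPKM in WT.

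Fmod, which encodes fibromodulin, a collagen-binding relative of lumican, had 3.06 FPKM in KO and 2.38 FPKM in WT. Its log2 ratio of 0.27 lay inside the central 95%, from -0.64 to 0.57, of the 4081 genes with a mean from 1 to under 5 FPKM. The relatives beside it on chromosome 1 were lower in level and on both sides: Prelp had 0.422 FPKM in KO and 0.0849 FPKM in WT, and Optc (opticin) had 0.150 FPKM in KO and 0.566 FPKM in WT. Btg2 on its other side had 10.8 FPKM in KO and 11.1 FPKM in WT.

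**Figure D3:**
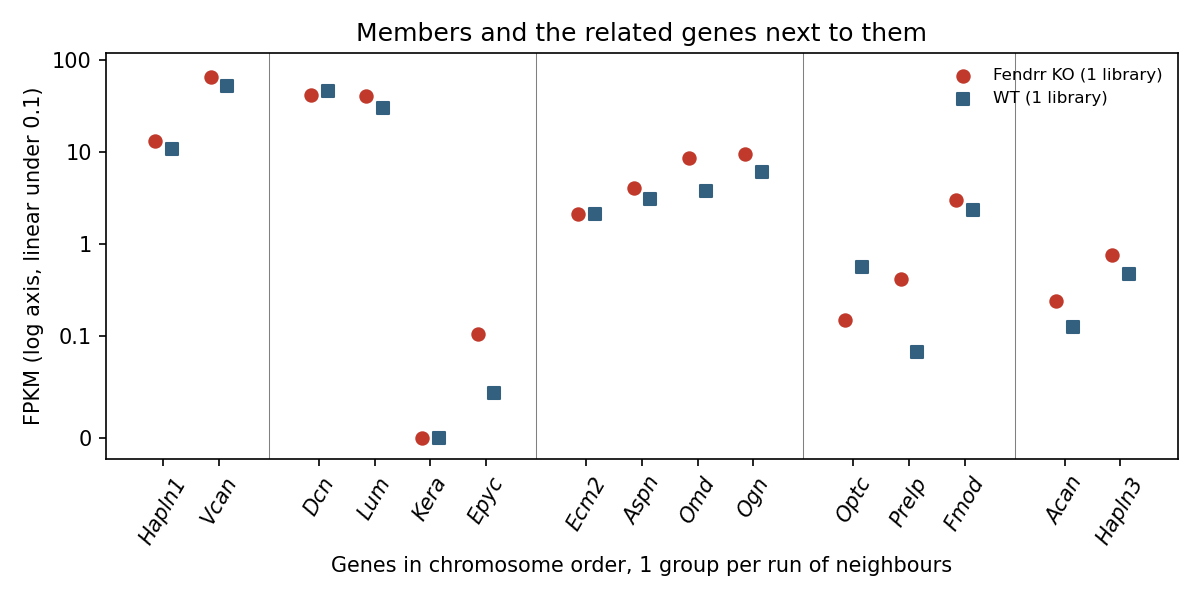
FPKM in KO (circles) and WT (squares) of cushion genes and the related proteoglycan genes that lie beside them, in chromosome order, on an axis that is logarithmic above 0.1 FPKM and linear below; vertical lines separate 5 runs of neighbouring genes. Vcan and Hapln1 differ by the same proportion, Dcn and Lum by different ones, and within the run that ends in Ogn the gap is widest at Omd.

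Over the whole family of small leucine-rich proteoglycans, 18 of 19 symbols had a row and 9 reached the level tested, 5 of which are the genes above. Of these 9, 8 lay above the all-gene median, the median log2 ratio was 0.30, and Omd was the 1 gene at least 2-fold higher in KO. The family summed to 136.7 FPKM in KO and 112.7 FPKM in WT, of which Dcn was 30.96% in KO and 40.95% in WT.

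The sugar chains of these proteoglycans are built by enzymes whose genes stood on both sides. Of 27 genes of chondroitin and dermatan sulfate synthesis, 21 were tested, 13 above and 8 below the all-gene median, with log2 ratios from -0.46 to 0.33, a median of -0.0055 and none 2-fold apart. The lowest ratio was that of Slc35b2, a transporter of the sulfate donor, at 5.83 FPKM in KO and 8.40 FPKM in WT. Dse, which turns chondroitin into dermatan sulfate, had 8.29 FPKM in KO and 11.3 FPKM in WT, and Pxylp1, a phosphatase of the linkage sugar, had 10.2 FPKM in KO and 7.96 FPKM in WT. The most abundant were Fam20b, a kinase of the linkage sugar, at 35.6 FPKM in KO and 36.9 FPKM in WT, and Chsy1, a chain polymerase, at 26.3 and 25.4 FPKM in the same order. Csgalnact2, which starts the chondroitin chain, had 12.8 FPKM in KO and 10.4 FPKM in WT.

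Versican and aggrecan are cut by secreted ADAMTS proteases. Of 7 such genes 5 were tested, 4 of them above the all-gene median, with a median log2 ratio of 0.14. Adamts8 was the 1 gene at least 2-fold higher in KO, at 8.57 FPKM in KO and 3.72 FPKM in WT. Adamts1, the most abundant, had 33.2 FPKM in KO and 26.9 FPKM in WT, and Adamts9 had 9.33 FPKM in KO and 9.19 FPKM in WT. The level of Adamts1 thus differed by nearly the proportion seen for Vcan.

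Matrix proteins that versican, biglycan or decorin bind were mostly higher in KO. Of 16 genes 14 were tested, 13 lay above the all-gene median, and the median log2 ratio was 0.20. The remaining gene tested, Fbln1 (fibulin-1), had 11.4 FPKM in KO and 13.6 FPKM in WT, a log2 ratio of -0.24. Eln (elastin) was the 1 gene at least 2-fold higher, at 31.0 FPKM in KO and 12.9 FPKM in WT. Among the collagens, Col3a1 had 174.1 FPKM in KO and 151.9 FPKM in WT, Col1a2 had 58.0 FPKM in KO and 49.9 FPKM in WT, and Col6a3 had 3.36 FPKM in KO and 1.81 FPKM in WT.

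**Figure D4:**
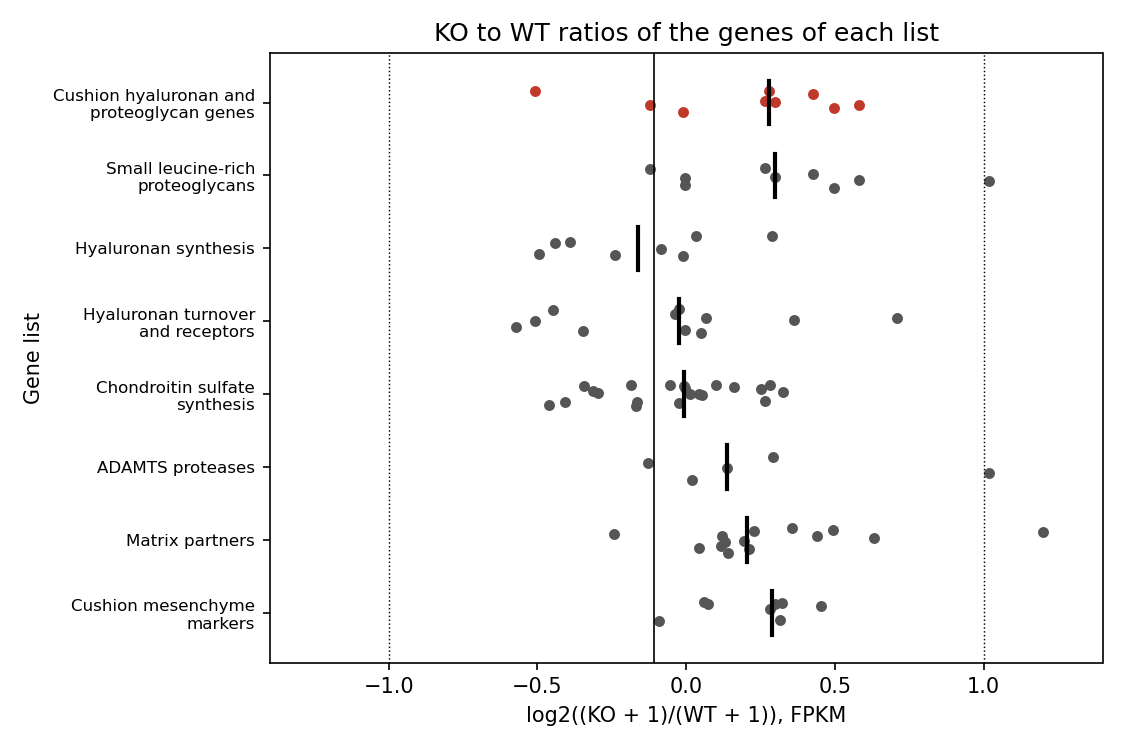
Log2 ratio of KO to WT (1 FPKM added) for each gene averaging 1 FPKM or more in 8 lists, which share some genes; thick bars are list medians, the thin vertical line is the median of all genes, -0.11, and dotted lines mark 2-fold. The cushion genes, small leucine-rich proteoglycans, matrix partners and cushion mesenchyme markers lie mostly to its right, while hyaluronan synthesis genes straddle it.

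Markers of cushion mesenchyme lay above the all-gene median as well. All 10 cushion mesenchyme markers were above 0 in both libraries, 8 were tested, and all 8 lay above the all-gene median, with a median log2 ratio of 0.29. Their summed level was 323.1 FPKM in KO and 259.9 FPKM in WT, most of it Postn (periostin), at 224.4 FPKM in KO and 163.5 FPKM in WT. Nearly all of the difference between the 2 sums was that of Postn. Prrx1, a mesenchymal homeobox factor, had 3.66 FPKM in KO and 2.72 FPKM in WT, while Tbx20 had 46.5 FPKM in KO and 49.6 FPKM in WT. In RNA of whole ventricles, a different number of mesenchymal cells and a different amount of RNA per cell cannot be told apart, and the part of either in the values above was not tested.

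The other cells of the ventricle differed in both directions. The 10 cardiomyocyte markers lay 5 above and 5 below the all-gene median and summed to 23441 FPKM in KO and 23329 FPKM in WT. Myl2, the ventricular myosin light chain gene and the most abundant of them, had 9478 FPKM in KO and 9103 FPKM in WT. Myl3, another myosin light chain gene, had 1651 FPKM in KO and 2671 FPKM in WT, and the troponin T gene Tnnt2 had 2174 FPKM in KO and 1524 FPKM in WT, log2 ratios of -0.69 and 0.51. The 8 endocardial markers summed to 232.9 FPKM in KO and 228.9 FPKM in WT, with 7 above the all-gene median. The 7 epicardial markers, 4 of them above it, summed to 88.96 FPKM in KO and 79.6 FPKM in WT, with a median log2 ratio of 0.016. By FPKM, 4 of the 7 were higher and 3 lower in KO. Tcf21, a factor of epicardial cells and fibroblasts, had the highest log2 ratio of the 7, 0.49, at 19.1 FPKM in KO and 13.3 FPKM in WT.

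Markers of neighbouring tissues bear on genes that those tissues also make. The 9 cartilage markers summed to 29.7 FPKM in KO and 23.7 FPKM in WT, and the 4 tested all lay above the all-gene median. Col2a1, which cushion mesenchyme also expresses, led them with 12.53 FPKM in KO and 9.66 FPKM in WT, and the cartilage gene Matn1 was listed at 0 in both libraries. The 7 macrophage markers, a cell type that can carry Lyve1 and Cd44, summed to 14.8 FPKM in KO and 10.5 FPKM in WT. Of the 6 tested, 5 lay above the all-gene median, and 1 (C1qb) was at least 2-fold higher in KO. By FPKM, 3 of the 6 were higher and 3 lower in KO. Subunits of the complement protein C1q stood on both sides by FPKM. C1qb had 4.41 FPKM in KO and 1.58 FPKM in WT, and C1qa had 3.26 FPKM in KO and 1.69 FPKM in WT. C1qc had 2.13 FPKM in KO and 2.32 FPKM in WT, yet lay 0.027 above the all-gene median. The 8 liver and yolk sac markers summed to 21.8 FPKM in KO and 0.832 FPKM in WT. Afp had 16.6 FPKM in KO and 0.110 FPKM in WT, Ttr had 1.79 FPKM in KO and 0.438 FPKM in WT, and Alb was listed at 0 in both libraries. None of 5 lung markers reached 1 FPKM, and of 5 skeletal muscle markers only Ckm did, which heart muscle also expresses, with Myf5 listed at 0 in both libraries. Ckm had 84.6 FPKM in KO and 45.8 FPKM in WT, a log2 ratio of 0.87. The part of any of these tissues in the differences was not tested.

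The targeted gene could not check the labels: Fendrr had no row, and the row of 1110050K14Rik, an older name of it, held 0 for KO and for WT. The Y-linked gene Ddx3y had 0.786 FPKM in KO and 17.7 FPKM in WT. Xist was under 1 FPKM in both libraries, at 0.0677 FPKM in KO and 0.0454 FPKM in WT. Bgn is X-linked, and any part of the sex of the pooled embryos in its values was not tested. The FPKM values hold no read counts, so absolute depth is unknown and no counting interval is given. For 2213 genes with values above 0 and a mean under 0.3 FPKM, 69.1% of KO to WT ratios, divided by a step of 0.796, came within 0.1% of a quotient of whole numbers no larger than 10, and the next best step reached 42.6%. On that step the KO library had 1.26 times the depth of the WT library. Only steps that make the KO library the deeper one were tried, so the search could not have returned the reverse.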

How the data were processed

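RNA of 4 pooled ventricles per genotype, 500 ng in total, was depleted of ribosomal RNA, amplified for 15 PCR cycles and read for 100 bases from 1 end on separate runs, per the labels' protocols. The deposited table gives 1 FPKM value per symbol and library, per the file headers. The submitters' processing notes name TopHat2 2.0.6, Bowtie2 2.0.2, Cufflinks 2.0.2 and the mouse build mm9; the annotation, the options and whether counting used strand are not given in the sources used here.

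From the deposited FPKM values, log2((KO + 1)/(WT + 1)) was computed for the 11349 of 23276 genes averaging 1 FPKM or more, and a gene was counted as higher or lower at 2-fold. With 1 library per genotype no test was possible and no p-value was computed. The 10 genes and all lists were chosen with earlier results of these data known. Lists were described by counts and medians beside those of all genes tested. Named in addition to the 10 genes were the 2 highest and the 2 furthest from the all-gene median of each list, and the protein-coding genes next to each of the 10; not all are printed. Hyal2, Aspn, Ecm2, Slc35b2, Dse, Fbln1, C1qc, Epyc, Optc and the genes of families given at or near 0 were named after their values were seen. Older symbols stood in for 4 genes.

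Neighbouring genes came from RefSeq on GRCm38.p6, without coordinates since the values are on mm9, and promoter windows from RefSeq on the same build, found for 7 of the 10 genes. Calculations used Python 3.11.15, numpy 2.4.6, pandas 2.3.3 and matplotlib 3.10.9, and were tested on simulated data. Alternatives were pseudocounts of 0.1 and 5, no filter, a minimum mean of 5 FPKM, limits of 1.5-fold and 4-fold, and 5 scalings: median centring, upper quartile, trimmed mean (at either end 30% of log ratios and 5% of levels were trimmed), quantiles, and equal totals without haemoglobin genes and the 20 highest genes.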

Additional observations from a re-analysis of the deposited data

How the results depend on the processing

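No paired analysis was possible because KO and WT are 1 library each, so none could be left out either. None of the 9 genes was 2-fold apart under any alternative. Their median log2 ratio, 0.28 as deposited, was 0.39 with median centring, 0.385 with the trimmed mean, 0.40 after quantile normalization, 0.42 with equal totals and 0.47 with the upper quartile. Relative to the all-gene median it ran from 0.28 (pseudocount 5) to 0.43 (pseudocount 0.1). Has2 turned from -0.0094 to 0.10, 0.091, 0.095, 0.12 and 0.17 under the same scalings in that order. Dcn turned from -0.12 to 0.076 with the upper quartile and 0.022 with equal totals. The all-gene median became 0.065 with the upper quartile and 0.0165 with equal totals. Cd44 stayed below the all-gene median under every alternative run, with log2 ratios from -0.55 to -0.33, and Ogn stayed above it, with log2 ratios from 0.40 to 0.76. Dcn lay above that median in 5 of the 11 alternatives. Over all genes, 53 were 2-fold higher and 44 lower as deposited, against 98 and 98 at a pseudocount of 0.1, 16 and 17 when 5 was added, 26 higher at a minimum mean of 5 FPKM, 175 and 408 at 1.5-fold and 17 and 7 at 4-fold. The share of higher genes among them was 54.6% as deposited, 44.1% at that minimum mean and 70.8% at 4-fold, and 68.1% to 79.6% under the 5 scalings, with 20 to 29 lower genes. Absolute depth is unknown, which limits Acan, Prelp, Optc and the other genes under 1 FPKM most.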

Other observations

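Proteoglycans that carry heparan sulfate on the cell surface, a list added after the data were seen, were spread to both sides. Of 10 syndecan and glypican genes 9 were tested, 5 above and 4 below the all-gene median, with a median log2 ratio of 0.066 and none 2-fold apart. Gpc3, a glypican of growing embryonic tissues, was more abundant than Vcan, at 140.4 FPKM in KO and 116.1 FPKM in WT. Sdc4, a syndecan of focal adhesions, had 21.4 FPKM in KO and 12.46 FPKM in WT, while Gpc1 had 11.3 FPKM in KO and 19.3 FPKM in WT, log2 ratios of 0.74 and -0.73. Of 11 other proteoglycan genes 4 were tested, and all 4 lay above the all-gene median, with Smoc2 the furthest at 5.56 FPKM in KO and 4.18 FPKM in WT. Tgfbr3, a co-receptor for TGF-beta with sugar chains, had 10.6 FPKM in KO and 10.9 FPKM in WT.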
